A study of Canis lupus familiaris with 12 samples.

Results

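The genes described here are the splicing factors and RNA-binding families whose platform symbol starts with SRSF, HNRNP, SNRP, SF3A, SF3B, PRPF, DDX, DHX or RBM. By this rule 46 of the 4325 genes named by a single symbol were members: 6 SRSF, 5 HNRNP, 5 SNRP, 3 SF3 (SF3A1, SF3A3 and SF3B2), 4 PRPF, 11 DDX, 1 DHX and 11 RBM genes, read by 71 spots of 50 clones. Membership was read from symbols only. The rule also names SRSF4 to be shown by array, and the members were chosen with earlier results of these data known. The cells were MDCK, a dog kidney epithelial line, carrying Snail, Slug or E47, transcription factors known as repressors of the E-cadherin gene CDH1, and the control was the MDCK-CMV line, whose RNA was the other channel of every array. There were 2 numbered samples of each transfectant, and both were run in each dye orientation (the transfectant in Cy5, or in Cy3), so every transfectant has 4 arrays and the study 12. The labels leave unsaid whether a transfectant was 1 clone and whether its numbered samples were grown separately, and the p-values therefore speak only of the spread between the numbered samples. All values below are log2 ratios of a transfectant to MDCK-CMV, or differences of such ratios, and none is a level.

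Pre-mRNA splicing is carried out by the spliceosome, which is built from small nuclear ribonucleoproteins (snRNPs) and many further proteins. SR proteins bind exons and mostly favour their inclusion, hnRNPs bind the nascent transcript and often favour skipping, and the SNRP, SF3 and PRPF proteins are parts of the spliceosome itself. DEAD-box (DDX) and DEAH-box (DHX) proteins are helicases that remodel RNA in splicing, ribosome assembly, translation and decay, and RBM proteins are a mixed group that share an RNA recognition motif. Epithelial and mesenchymal cells are known to differ in alternative splicing.

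The direction of every ratio is assumed. The labels name a dye for the transfectant but no numerator for the deposited ratio, and the signs did not follow the dyes. As deposited, pairs of arrays of the same transfectant correlated over the genes that are not members with a mean r of 0.50 (7 pairs) or of -0.52 (11 pairs). Therefore 5 arrays were multiplied by -1, both of Snail 2, both of Slug 1 and, of E47 2, the one titled Cy5, and the leading eigenvector of the correlation matrix, taken without the members and CDH1, gave the same relative signs on 4 of 4 arrays in each transfectant. The sign of each transfectant as a whole was set so that CDH1 lay below the control. DSP, the desmosome protein desmoplakin, which set no sign, lay below the control with CDH1, at -2.51 in Snail (adjusted p = 1.72e-04), -1.67 in Slug (adjusted p = 5.12e-04) and -0.67 in E47 (adjusted p = 0.0232). Of the listed epithelial markers tested, CDH1 among them, 6 of 6 lay below it in Snail, 5 of 7 in Slug and 6 of 6 in E47. In Slug KRT8 (0.23) and KRT18 (0.14) lay above it (adjusted p = 0.53 and 0.482 in limma). Were a transfectant's sign the other way round, its rises would be falls.

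Arrays held 10654 to 12982 values each. Precision is limited by how few arrays there are. Of the 46 members, 40 had a value on all 12 arrays. Both numbered samples were complete for 41 members in Snail, 42 in Slug and 45 in E47, which are the members tested there. RBMX could not be tested in any comparison, DDX17 and RBM15 were tested in E47 only, DDX23 and RBM7 were not tested in Snail and RBM25 was not tested in Slug. The median absolute difference between the numbered samples over the members was 0.25 in Snail, 0.21 in Slug and 0.21 in E47 on the log2 scale, against 0.22, 0.21 and 0.18 over all genes. No member had numbered samples, and none of the 4 members with several clones had clones, on opposite sides of 0 and more than 1 apart. At smaller gaps, the clones of RBM26 lay on opposite sides of 0 in Snail (-0.38 and 0.32), Slug (0.04 and -0.46) and E47 (-0.39 and 0.05). Those of SRSF11 did so in Snail (-0.24 and 0.12) and E47 (0.17 and -0.02). The Cy5 and Cy3 arrays of E47 1 were the least alike: across 45 members their values correlated with r = 0.05, against 0.78 for E47 2, and across 4026 genes with 0.36.

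In the plot of all members by array, the rows of SRSF4, RBM14 and RBM27 change side between Snail and the other transfectants on every array, and most other rows are pale.

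**Figure D1:**
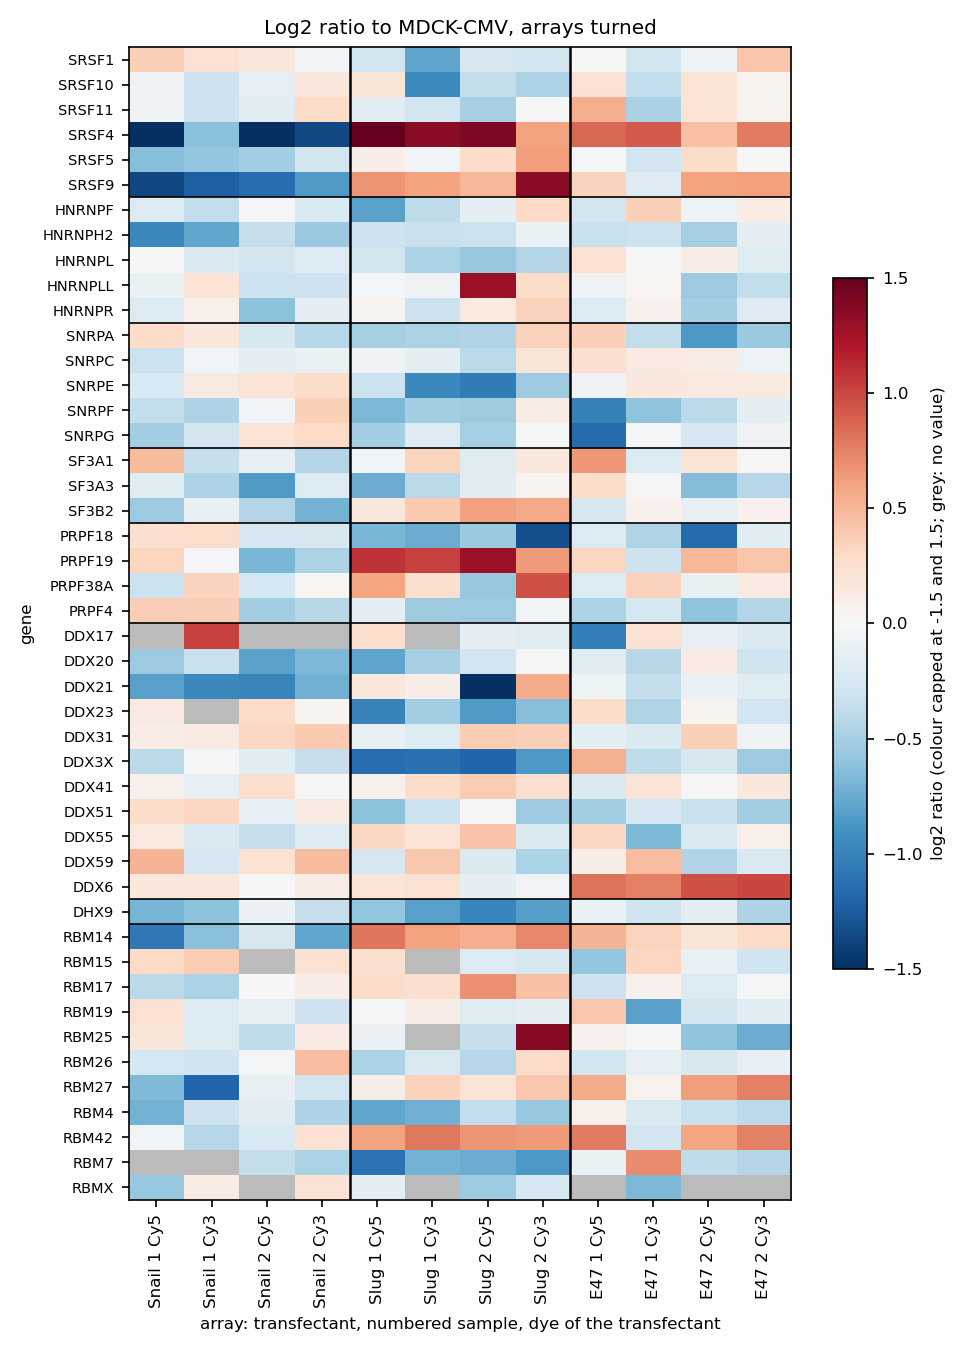
Log2 ratio to MDCK-CMV of the 46 members (rows, grouped by family) on the 12 arrays (columns, named by transfectant, numbered sample and dye of the transfectant), after turning 5 arrays; colour is capped at -1.5 and 1.5 and grey marks no value. SRSF4 and SRSF9 are below 0 on all 4 Snail arrays and above 0 on all 4 Slug arrays, and DDX6 is above 0 on all 4 E47 arrays. Of all genes tested, 36.3% in Snail, 41.5% in Slug and 32.5% in E47 had all 4 arrays on the same side of 0.

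In Snail against the control, 5 of 41 members fell and 0 rose: SRSF4, SRSF9, DDX21, RBM14 and HNRNPH2. Calls are those with a Benjamini-Hochberg adjusted p under 0.05 in limma, fitted and adjusted over all genes. Over all 3768 genes tested 7.22% were called, 5.07% lower and 2.15% higher, beside 12.2% of the members; at an unadjusted p under 0.05, 11 members were lower and 0 higher (26.8%, near the 24.3% of all genes, where 582 were lower and 335 higher). Without Snail replicate 1 the count was 1 member (2.33%, against 2.65% of all genes), and without Snail replicate 2 it was 0 (against 0.837%), so the share above the background was not kept without either. The members lay below 0 more often than not, 33 of 41 (80.5%, against 58.9% of all genes), with a median of -0.13 against -0.05 over all genes. With each array centred on its own median, 30 of 41 were below 0 (73.2%, against 49.6%). With each array centred on its own median, 40.1% of the calls over all genes were higher, against 29.8% without. Under the opposite sign for Snail the 5 members would be rises and 0 would be falls.

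In Slug against the control, 13 of 42 members were called, 5 higher (SRSF4, PRPF19, SRSF9, RBM42 and RBM14) and 8 lower (DDX3X, RBM7, PRPF18, DHX9, DDX23, SNRPE, RBM4 and HNRNPL) (under the opposite sign, 8 rises and 5 falls). That is 31.0% of the members, where 21.8% of all 4053 genes tested were called, 12.2% higher and 9.62% lower. The median of the members was -0.22 and that of all genes 0.02. Slug arrays had wider ratios than the others (SD 0.640 to 0.695, against 0.446 to 0.586). Once every array was brought to 1 spread, 3 members were called higher and 5 lower, 8 in all (19.0%, against 12% of all genes). SRSF9, RBM42, RBM7, RBM4 and HNRNPL were the calls lost there, with an adjusted p from 0.055 to 0.0888. On the arrays titled Cy3 alone the median of the members was -0.03. The members called fell to 6 without Slug replicate 1 (13.0%, against 8.04% of all genes) and to 5 without Slug replicate 2, where their share of 11.9% was below the 14.6% of all genes.

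In E47 against the control, DDX6 and SRSF4 rose and 0 of 45 members fell (under the opposite sign, 0 rises and 2 falls); at an unadjusted p under 0.05, 5 were higher and 5 lower (22.2%, against 20.4% of all genes). The share called, 4.44%, was near the 5.30% of all 3966 genes tested (3.81% higher, 1.49% lower). The median of the members was -0.11, against 0.01 over all genes.

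**Figure D2:**
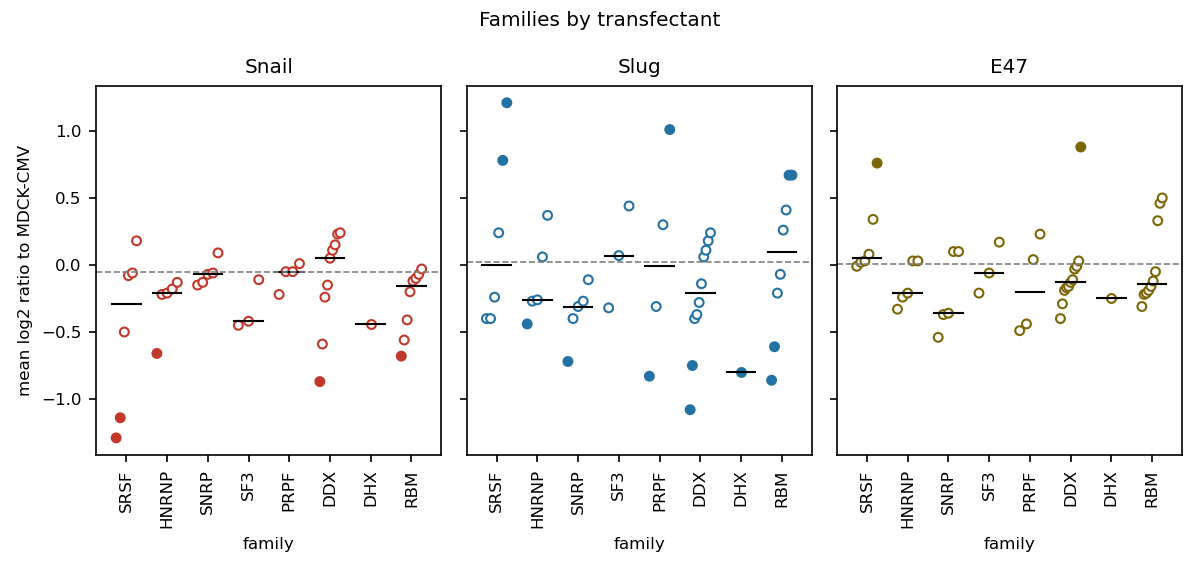
Mean log2 ratio to MDCK-CMV of each tested member (points) by family, in Snail, Slug and E47; filled points were called, black bars are family medians and the dashed line is the median of all genes. Within the SRSF family in Slug the members spread from -0.40 to 1.21 around a median of 0.00.

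Among the SR proteins, SRSF4 had the largest ratios in size of all members in Snail and in Slug. SRSF4 is an SR protein with an extended arginine-serine domain that acts in constitutive and alternative splicing. Its log2 ratios were -1.53 and -0.63 on the Snail 1 arrays (Cy5, then Cy3) and -1.64 and -1.35 on the Snail 2 arrays. In Slug they were 1.49 and 1.35 for sample 1 and 1.39 and 0.60 for sample 2, and in E47 0.86 and 0.92 for sample 1 and 0.45 and 0.78 for sample 2. All 4 Snail arrays lay below the control and all 8 others above it, so that Snail overlaps with neither, while the Slug and E47 arrays overlap. The mean was -1.29 ± 0.16 in Snail (SE, n = 2; adjusted p = 0.00455), a 2.44-fold lower ratio, 1.21 ± 0.16 in Slug (adjusted p = 0.00279), 2.31-fold higher, and 0.76 ± 0.16 in E47 (adjusted p = 0.0366), 1.69-fold higher. The Slug call was kept without either Slug replicate (adjusted p = 0.00728 without replicate 2 and 0.0353 without replicate 1). The Snail call was lost without Snail replicate 2 (-1.08, adjusted p = 0.0788), and the E47 call without E47 replicate 1 (0.62, adjusted p = 0.29) or 2 (0.89, adjusted p = 0.224), and also, at the same ratio, without the Slug 2 array titled Cy5 (adjusted p = 0.133). On the Cy3 arrays alone the Snail call was lost too (-0.99, adjusted p = 0.106), as was the E47 call on the Cy5 (0.66, adjusted p = 0.0767) or the Cy3 arrays (0.85, adjusted p = 0.213). SRSF4 was read by 1 spot, so no second clone bears on it.

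SRSF9, a small SR protein, had the same order of transfectants. On the Snail arrays it read -1.37 and -1.22 (sample 1) and -1.14 and -0.85 (sample 2), on the Slug arrays 0.66 and 0.60, then 0.50 and 1.35, and on the E47 arrays 0.34 and -0.19, then 0.60 and 0.61. Every Snail array was below every Slug and E47 array. SRSF9 was 2.21-fold lower than the control in Snail (-1.14 ± 0.17, SE, n = 2; adjusted p = 0.00691) and 1.71-fold higher in Slug (0.78 ± 0.17; adjusted p = 0.015), and its E47 mean of 0.34 ± 0.17 did not pass (adjusted p = 0.307). The Snail call was lost without Snail replicate 1 (-0.99, adjusted p = 0.088) or 2 (-1.30, adjusted p = 0.0668), and the Slug call without Slug replicate 1 (0.93, adjusted p = 0.0501) or 2 (0.63, adjusted p = 0.107). On the Cy3 arrays alone the Snail call was also lost in limma (-1.03, adjusted p = 0.11). The Slug call was lost on the Cy5 arrays alone (0.58, adjusted p = 0.0605) and on the Cy3 arrays alone (0.97, adjusted p = 0.0523). SRSF9 too was read by 1 spot, as were 29 of the 46 members in all. RBM14, RBM7, DDX3X, DDX21, DDX23, PRPF18, SNRPE and HNRNPH2 are among those 29.

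The other 4 SR protein genes did not pass against the control in any transfectant. SRSF5, which binds exonic enhancers, was at -0.50 ± 0.15 in Snail (adjusted p = 0.0878), with 4 of 4 arrays between -0.64 and -0.27, at 0.24 in Slug and at -0.01 in E47. SRSF1, the SR protein first purified as a splicing factor, was at -0.40 ± 0.14 in Slug (adjusted p = 0.0803), with all 4 arrays between -0.79 and -0.25, at 0.18 in Snail and at 0.02 in E47. SRSF10, a splicing repressor in its dephosphorylated form, had -0.40 ± 0.12 in Slug (adjusted p = 0.0544) but ran from -0.95 to 0.18 on its arrays. SRSF11, an arginine-serine-rich protein, stayed between -0.24 and 0.08 in its 3 means.

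**Figure D3:**
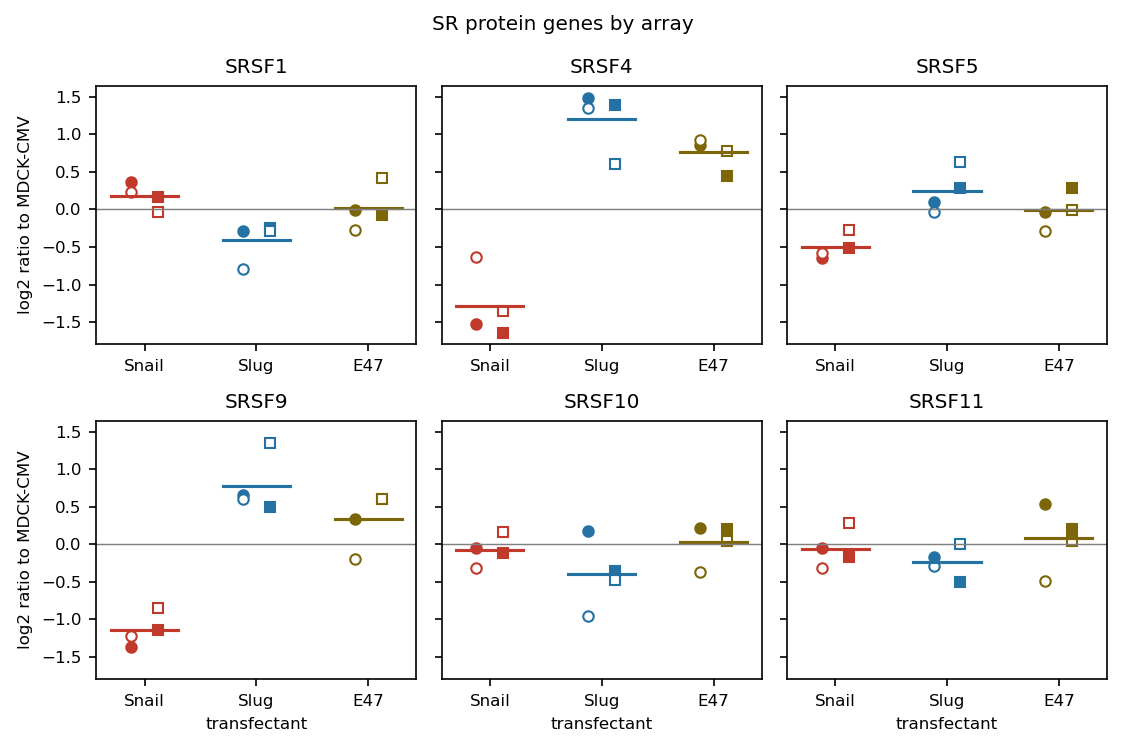
Log2 ratio to MDCK-CMV of the 6 SR protein genes on each array, by transfectant; circles are sample 1, squares sample 2, filled symbols the arrays titled Cy5, open symbols those titled Cy3, and the line is the mean of the 2 samples. SRSF4 and SRSF9 have all Snail arrays below 0 and all Slug arrays above it, while the means of SRSF1, SRSF10 and SRSF11 stay between -0.40 and 0.18.

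The hnRNP genes were all below 0 in Snail, from -0.66 to -0.13, and 1 of 5 fell there, where 58.9% of all genes lay below 0 (49.6% with median centring) and 7.22% were called. HNRNPH2, which binds G-rich RNA, read -0.97 and -0.78 in Snail 1 and -0.34 and -0.56 in Snail 2. The sample 1 arrays were the lower ones. Its mean was -0.66 ± 0.14 (SE, n = 2; adjusted p = 0.0288), lost without Snail replicate 1 (-0.45, adjusted p = 0.202) or 2 (-0.88, adjusted p = 0.0699). HNRNPL, which binds CA repeats, was the hnRNP gene that fell in Slug: its arrays read -0.28, -0.47, -0.57 and -0.44, and its mean was -0.44 ± 0.12 (adjusted p = 0.0349). That call was lost without Slug replicate 1 (-0.51, adjusted p = 0.129) or 2 (-0.38, adjusted p = 0.188), and, at the same ratio, without either E47 replicate (adjusted p = 0.0617). HNRNPF, HNRNPR and HNRNPLL, the last known for its part in CD45 splicing, passed in no transfectant. HNRNPLL ranged widely in Slug, from -0.05 to 1.29.

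Among the snRNP proteins, SNRPE, SNRPF and SNRPG belong to the Sm ring shared by most spliceosomal snRNPs, and SNRPA and SNRPC are U1 proteins. All 5 had means below 0 in Slug, from -0.72 to -0.11, and 1 passed. There 47.4% of all genes lay below 0 (49.3% with median centring) and 21.8% were called. SNRPE read -0.32 and -0.97 in Slug 1 and -1.05 and -0.54 in Slug 2, all below 0. Its mean was -0.72 ± 0.13 (SE, n = 2; adjusted p = 0.00769), and the call was lost without Slug replicate 2 (-0.65, adjusted p = 0.0563). In Snail and E47 SNRPE was at 0.09 and 0.10. SNRPF had the lowest mean of the members in E47, -0.54, with arrays from -1.01 to -0.15 (sample 1 at -1.01 and -0.60, sample 2 at -0.41 and -0.15), and SNRPG was at -0.37 there. Neither passed. SNRPA and SNRPC stayed between -0.36 and 0.10 in their 6 means.

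The SF3 genes encode parts of the U2 snRNP, which recognises the branch point. None of the 3 passed against the control in any transfectant. SF3B2 read -0.55 and -0.11, then -0.44 and -0.71 on the Snail arrays, and 0.17 and 0.39, then 0.62 and 0.57 on the Slug arrays. The 2 sets do not overlap. Its mean was -0.45 ± 0.13 in Snail (adjusted p = 0.0835) and 0.44 ± 0.13 in Slug (adjusted p = 0.0517). Its spots, both of 1 clone, did not run alike: on the Snail arrays 1 spot read -0.92, -0.18, -1.06 and -1.05 and the other -0.17, -0.04, 0.17 and -0.38.

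Of the 4 PRPF genes, 1 rose and 1 fell in Slug (50%, against 21.8% of all genes). PRPF19, a ubiquitin ligase and the core of the complex that activates the spliceosome, read 1.08 and 1.03 in Slug 1 and 1.28 and 0.64 in Slug 2, a mean of 1.01 ± 0.19 (SE, n = 2; adjusted p = 0.00968), 2.01-fold higher. It lost that call without Slug replicate 1 (0.96, adjusted p = 0.0765). Its 3 spots, all of 1 clone, read 0.98, -0.39 and 1.34 on the Slug 2 array titled Cy3. In Snail its samples parted, with 0.15 in sample 1 and -0.58 in sample 2. PRPF18, a factor of the second catalytic step, read -0.68 and -0.75, then -0.56 and -1.32, in Slug, a mean of -0.83 ± 0.16 (adjusted p = 0.0108), lost without Slug replicate 2 (-0.71, adjusted p = 0.076). PRPF4, a U4/U6 protein, and PRPF38A passed in no transfectant. On the Snail arrays PRPF4 had the widest gap between samples of all members, 0.83 on the log2 scale, with 0.37 on both arrays of sample 1 and -0.52 and -0.42 on those of sample 2.

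The DDX and DHX helicases gave 1 call of 10 tested in Snail, 3 of 11 in Slug and 1 of 12 in E47, each of a different gene. These shares (10%, 27.3% and 8.33%) were near those of all genes (7.22%, 21.8% and 5.30%). DDX3X, which acts in translation initiation, read -1.14 and -1.12 in Slug 1 and -1.19 and -0.86 in Slug 2. All were below the Snail arrays (-0.40 to -0.03) and the E47 arrays (-0.55 to 0.53). Its mean was -1.08 ± 0.14 (SE, n = 2; adjusted p = 0.00279), 2.11-fold lower, and it was called without either Slug replicate (adjusted p = 0.0133 and 0.0325). DHX9, RNA helicase A, read -0.58, -0.82, -0.98 and -0.83 in Slug, a mean of -0.80 ± 0.14 (adjusted p = 0.00806; without Slug replicate 2 -0.70, adjusted p = 0.0608). DDX23, the U5 helicase that helps release U1 from the splice site, had -1.0, -0.51, -0.85 and -0.64 there, a mean of -0.75 ± 0.12 (adjusted p = 0.0074; without Slug replicate 1 -0.75, adjusted p = 0.0559). All 4 Slug arrays of each of these genes were below 0. Of all genes tested in Slug, 41.5% had all 4 arrays on the same side of 0.

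DDX6 was the helicase that rose in E47. It unwinds RNA in P-bodies and takes part in decapping and microRNA repression. Its E47 arrays read 0.81 and 0.75, then 0.95 and 1.00, while all 8 Snail and Slug arrays stayed between -0.14 and 0.23. Averaged over spots, the E47 arrays do not overlap with those of either transfectant. Of all genes, 20.1% did not overlap between Snail and E47 and 12.7% between Slug and E47. The DDX6 spots, both of 1 clone, did overlap. They read 0.38 and 1.23 on the E47 1 array titled Cy5, and -0.60 and 0.52 on the Slug 2 array titled Cy3. Its mean in E47 was 0.88 ± 0.13 (SE, n = 2; adjusted p = 0.0114), 1.84-fold higher, and the call was lost without E47 replicate 1 (0.98, adjusted p = 0.0543) or 2 (0.78, adjusted p = 0.219). DDX21, a nucleolar helicase of ribosomal RNA processing, fell in Snail: its arrays read -0.81, -0.97, -0.99 and -0.72, a mean of -0.87 ± 0.19 (adjusted p = 0.0317), lost without Snail replicate 1 (-0.86, adjusted p = 0.173) or 2 (-0.89, adjusted p = 0.228). In Slug 2 the DDX21 arrays disagreed, with -1.95 for Cy5 and 0.56 for Cy3. DDX20, a partner of the SMN complex that assembles snRNPs, was at -0.59 in Snail with 4 of 4 arrays below 0 (adjusted p = 0.0657). DDX17, DDX31, DDX41, DDX51, DDX55 and DDX59 passed nowhere they were tested, with means from -0.40 to 0.24.

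The RBM genes gave 1 call of 8 tested in Snail (12.5%, against 7.22% of all genes). In Slug they gave 4 of 8, on both sides of 0 (50%, against 21.8%), and in E47 0 of 10 (against 5.30%). With every array brought to 1 spread, RBM42, RBM7 and RBM4 lost their Slug calls in limma (adjusted p = 0.0586, 0.0664 and 0.055). This left RBM14, where 12% of all genes were called. RBM14, a nuclear coactivator found in paraspeckles, read -1.07 and -0.63, then -0.24 and -0.78, in Snail, and 0.80 and 0.60, then 0.55 and 0.72, in Slug. In E47 it read 0.51 and 0.33, then 0.18 and 0.29, so that the arrays of the 3 transfectants do not overlap and Slug lies highest. Its mean was -0.68 ± 0.13 in Snail (SE, n = 2; adjusted p = 0.0225), 0.67 ± 0.13 in Slug (adjusted p = 0.0121) and 0.33 ± 0.13 in E47 (adjusted p = 0.217). Both calls were lost without either replicate of their transfectant: -0.51 (adjusted p = 0.173) and -0.85 (adjusted p = 0.079) in Snail, and 0.63 (adjusted p = 0.0938) and 0.70 (adjusted p = 0.0527) in Slug.

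RBM42 rose in Slug, where its arrays read 0.60, 0.79, 0.66 and 0.64 (mean 0.67 ± 0.14, SE, n = 2; adjusted p = 0.0147). It lost the call without Slug replicate 1 (0.65, adjusted p = 0.103) or 2 (0.69, adjusted p = 0.0649). In E47 it was at 0.78, 0.59 and 0.76 on 3 arrays and at -0.28 on the E47 1 array titled Cy3, and its mean of 0.46 did not pass (adjusted p = 0.111). RBM7, a subunit of a complex that targets nuclear RNA for decay, had -1.11, -0.71, -0.75 and -0.86 in Slug, a mean of -0.86 ± 0.18 (adjusted p = 0.0196), lost without replicate 1 (-0.81, adjusted p = 0.126) or 2 (-0.91, adjusted p = 0.068). RBM4, a regulator of alternative splicing, was at -0.78, -0.72, -0.37 and -0.57 in Slug, a mean of -0.61 ± 0.14 (adjusted p = 0.0198), lost without replicate 1 (-0.47, adjusted p = 0.185). Its 2 clones differed in size: in Slug one had a mean of -0.92 and the other -0.29, and in Snail -0.01 and -0.81. RBM27, a partner of nuclear RNA decay factors, was at 0.50 in E47, 0.26 in Slug and -0.56 in Snail. It passed in none of them (adjusted p = 0.18, 0.35 and 0.111). RBM15, RBM17, RBM19, RBM25 and RBM26 passed nowhere they were tested.

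**Figure D4:**
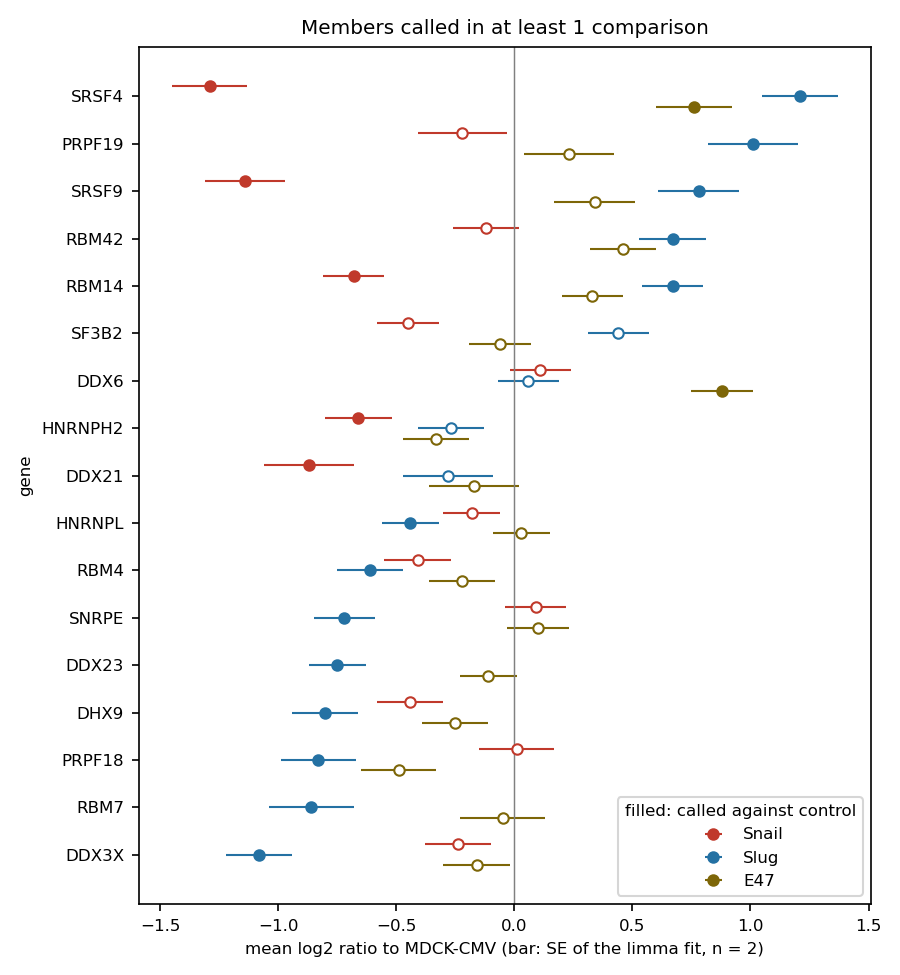
Mean log2 ratio to MDCK-CMV (points) with the SE of the limma fit (bars, n = 2) for the 17 members called in at least 1 of the 6 comparisons, by transfectant; filled points were called against the control. SRSF4, SRSF9 and RBM14 have Snail below 0 and Slug above it, both called, and DDX6 stands apart in E47 at 0.88.

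Direct comparisons between transfectants asked which members differ between the repressors. A deviation of a control RNA common to the arrays cancels in them if the signs are right. Between Snail and Slug 9 of 40 members were called (22.5%, against 13.2% of all 3675 genes tested; with all arrays brought to 1 spread, 4, or 10% against 9.36%, with 0 higher), 6 lower in Snail (9.14% of all genes) and 3 higher (4.08%). Over all genes 30.9% of the calls were higher in Snail, and 41.8% with each array centred on its own median. SRSF4 was 5.65-fold lower in Snail than in Slug, a difference of -2.50 ± 0.23 (SE, n = 2 each; adjusted p = 0.00316). SRSF9 differed by -1.92 ± 0.23 (adjusted p = 0.00523) and RBM14 by -1.35 ± 0.19 (adjusted p = 0.00784). These 3 were also called in all 4 fits that left out 1 Snail or Slug replicate, with an adjusted p of at most 0.0241, 0.0337 and 0.0383.

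The remaining 6 members called between Snail and Slug were PRPF19 (-1.22, adjusted p = 0.0267), SF3B2 (-0.89, adjusted p = 0.0247), RBM42 (-0.80, adjusted p = 0.0395), DDX3X (0.84, adjusted p = 0.0341), PRPF18 (0.83, adjusted p = 0.0494) and SNRPE (0.81, adjusted p = 0.0274). DDX3X, PRPF18, SNRPE and RBM42 lost their call in each fit without 1 Snail or Slug replicate, with differences from 0.79 to 0.89, 0.58 to 1.08, 0.67 to 0.96 and -0.91 to -0.68. PRPF19 kept it only without Snail replicate 1 (-1.59; -0.86 without Snail replicate 2, -1.18 and -1.27 without Slug replicate 1 and 2). SF3B2 kept it only without Slug replicate 1 (-1.05; -1.02 and -0.77 without Snail replicate 1 and 2, -0.74 without Slug replicate 2). PRPF18 also lost it without either E47 replicate (adjusted p = 0.0598). The 4 Snail and the 4 Slug arrays did not overlap for 15 of 40 members, beside 22.6% of all genes.

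Between Snail and E47, 3 of 41 members were called and all were lower in Snail (7.32%, against 2.57% of all 3617 genes tested, 2.41% lower and 0.166% higher). By limma 0 were higher, and at an unadjusted p under 0.05 1 was higher and 7 lower (19.5%, against 20% of all genes). Over all genes 6.45% of the calls were higher in Snail, and 17.2% with all arrays scaled to 1 spread. The 4 arrays of each did not overlap for 7 of 41 members, beside 20.1% of all genes. SRSF4 differed by -2.04 ± 0.23 (SE, n = 2 each; adjusted p = 0.0132), which is 4.13-fold, SRSF9 by -1.48 ± 0.23 (adjusted p = 0.0263) and RBM14 by -1.01 ± 0.19 (adjusted p = 0.0393). SRSF4 lost the call without Snail replicate 2 (-1.84, adjusted p = 0.0592) or E47 replicate 2 (-2.18, adjusted p = 0.0511). Without the Slug 2 array titled Cy5, which enters only the shared spread, none of the 3 passed (adjusted p = 0.0599 for SRSF4, 0.0906 for SRSF9 and 0.0841 for RBM14). SRSF9 kept it only without E47 replicate 1 (-1.75; -1.33 and -1.63 without Snail replicate 1 and 2, -1.22 without E47 replicate 2). RBM14 lost it in each of the 4 fits (-1.18 to -0.84) and with each array centred on its own median (-0.94, adjusted p = 0.0535).

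Between Slug and E47, 0 of 42 members were called in limma (0.786% of all 3816 genes tested were, 0.262% higher in Slug and 0.524% lower), while 11 of 42 had an unadjusted p under 0.05 (26.2%, against 16.2% of all genes). The 4 arrays of each did not overlap for 11 of 42 members, beside 12.7% of all genes. DDX3X was at -0.92 and DDX6 at -0.82 ± 0.19 (adjusted p = 0.1), and SRSF4 differed by 0.45 ± 0.23 (adjusted p = 0.382).

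These differences rest on the relative sign of the transfectants. With the second transfectant of a pair turned, SRSF4 differed between Snail and Slug by -0.08 (adjusted p = 0.848), RBM14 by -0.01 (adjusted p = 0.967) and SF3B2 by -0.01 (adjusted p = 0.97), since their ratios were of like size on opposite sides of 0. SRSF9 then differed by -0.37 (adjusted p = 0.318). The 3 members called between Snail and E47 also lost their calls, with SRSF4 at -0.53 (adjusted p = 0.203), SRSF9 at -0.81 (adjusted p = 0.0701) and RBM14 at -0.35 (adjusted p = 0.311). Between Slug and E47, SRSF4 was then called, at 1.96 (adjusted p = 0.0013). Turned in this way, 9 members were called between Snail and Slug, 0 higher and 9 lower in Snail (22.5%, against 18.3% of all genes). Between Snail and E47 3 were called (7.32%, against 9.87%), and between Slug and E47 15 (35.7%, against 25.8%).

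Other splicing and RNA-binding genes outside these families were taken from a list of 111 symbols, of which 37 were tested in at least 1 comparison. In Snail 3 of 33 fell and 0 rose (at an unadjusted p under 0.05, 11 were lower and 0 higher), which is 9.09% against 7.22% of all genes (unadjusted, 33.3% against 24.3%). These were NCBP1, the large subunit of the nuclear cap-binding complex (-0.75, adjusted p = 0.0145), SYNCRIP, an hnRNP-like protein (-0.65, adjusted p = 0.0415), and USP39, a tri-snRNP protein (-0.55, adjusted p = 0.0346). In Slug 8 of 35 rose and 9 fell, 48.6% beside the 21.8% of all genes. For this list, scaling, single dyes and fits without a replicate were not examined, so whether that share holds in them is unknown. Lower there were ELAVL2, a binder of AU-rich RNA (-1.24, adjusted p = 0.00189), FUBP1 (-1.02, adjusted p = 0.00182), CLK1, a kinase of SR proteins (-0.80, adjusted p = 0.00839), ESRP2, an epithelial splicing regulator (-0.57, adjusted p = 0.0198), BCAS2, CDC5L, NCBP1, NUDT21 and SYNCRIP. Higher were ELAVL4 (0.73), TIAL1 (0.68, adjusted p = 0.0114), PCBP2, a poly(C)-binding protein (0.66, adjusted p = 0.0113), IGF2BP1, IGF2BP2, CLK3 (0.52, adjusted p = 0.026), KHDRBS1 and UPF1, the helicase of nonsense-mediated decay (0.42).

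In E47 2 of 36 of these genes rose, MBNL2, a muscleblind splicing factor (0.89, adjusted p = 0.0225), and PCBP2 (0.74, adjusted p = 0.0189), and 0 fell (6 at an unadjusted p under 0.05); the share called, 5.56%, was near the 5.30% of all genes. Between Snail and Slug, FUBP1 was higher in Snail (1.11, adjusted p = 0.0098) and PCBP2 (-0.83), UPF1 (-0.82) and TIAL1 (-0.80) were lower, 4 of 31 in all (12.9%, near the 13.2% of all genes). PCBP2 was also lower in Snail than in E47 (-0.91, adjusted p = 0.0481), 1 of 32 (3.12%, against 2.57%), and ELAVL2 lower in Slug than in E47 (-1.36, adjusted p = 0.0355), 1 of 34 (2.94%, against 0.786%).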

How the data were processed

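RNA of the 3 transfectants was measured against MDCK-CMV on 12 two-colour arrays. The authors deposited a log2 ratio of the channels for 13056 probes; that it is log2 was checked on the numbers, as 100.0% of the antilogs of values below -0.5 on each array were whole thousandths (tolerance 6e-05 on the log2 scale). Nothing in the sources used here gives the scanner, the background correction, the centring or why some cells are empty. A table pairing probes with symbols gave 8047 probes with 1 symbol, 276 with several and 4733 with none. Only the first were used; 9 spots with several symbols, of which 1 or more had a member's prefix, were left out. Spots were averaged to clones, clones to genes, and the arrays of a numbered sample to 1 replicate, both being needed. limma 3.58.1 in R 4.3.3 fitted all 3 transfectants (prior degrees of freedom 4.854, prior SD 0.203). Ratios were tested against 0, which leaves out the control's own spread, and against each other, two-sided, with Benjamini-Hochberg adjustment over all genes tested. The fit was tested on simulated data.

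The members and lists were chosen with earlier results of these data known. Named are members called in any comparison, SRSF4, the 5 largest rises and falls on the same side of 0 on all 4 arrays per transfectant, and members with discordant clones or samples; others are named to account for them. Alternatives were scaling, centring, single dyes, complete genes, the median over spots, a replicate block, each replicate left out and, chosen after seeing the data, single arrays left out. Ratios give no level, so the presence of epithelial markers could not be read. Of such markers, 3 of 6 tested fell in Snail, 3 of 7 in Slug and 3 of 6 in E47. Each count includes CDH1, whose direction was fixed by the choice of sign. Of mesenchymal markers, 4 of 7, 3 of 7 and 4 of 8 rose and 1, 0 and 0 fell. Of the leukocyte markers, 0 of 2, 2 of 2 and 0 of 2 fell and none rose, and of the endothelial ones 0 of 3, 1 of 4 and 0 of 4 rose and none fell.
Clones are named by human genes and were hybridised with dog RNA; 45 of 46 member symbols are also dog RefSeq symbols. All comparisons with the control share its RNA.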

Additional observations from a re-analysis of the deposited data

Results flagged for a closer look

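Among the 67 sets of 4 arrays examined, 3 held an array far from the other 3 of its transfectant; chance alone sets apart about 1 in 20 sets. SRSF4 read 0.60 on the Slug 2 array titled Cy3, below the others (1.35 to 1.49). HNRNPH2 read -0.10 on that same array, above the others (-0.33 to -0.31). SNRPE read -0.05 on the E47 1 array titled Cy5, below the others (0.15 to 0.16).

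Some members differed between transfectants in a direct limma test. Snail was lower than Slug for SRSF4 (-2.50), SRSF9 (-1.92), RBM14 (-1.35), PRPF19 (-1.22), SF3B2 (-0.89) and RBM42 (-0.80), and higher for DDX3X (0.84), PRPF18 (0.83) and SNRPE (0.81). Snail was lower than E47 for SRSF4 (-2.04), SRSF9 (-1.48) and RBM14 (-1.01). All of these rest on the assumed signs.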

How the results depend on the processing

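The cause of the changes below was not tested. With all arrays scaled to 1 spread, 8 members and 486 genes were called in Slug, 363 genes in E47, 4 members between Snail and Slug (10%, against 9.36% of all genes) and 227 genes between Snail and E47. On the Cy5 arrays alone, 2 members were called in Snail (4.76%, against 5.77% of all genes). There were 7 members and 576 genes in Slug (15.2% against 13.4%) and 1 member in E47 (2.22% against 5.02%). Between Snail and Slug 5 members and 265 genes were called (11.9% against 6.9%), and between Snail and E47 39 genes. On the Cy3 arrays alone, 0 members and 56 genes (1.4% of all genes) were called in Snail. There were 6 and 372 in Slug (14.3% of the members, against 9.15% of all genes) and 0 and 42 in E47 (0% against 1.03%). Between Snail and Slug there were 3 and 88 (7.5% against 2.29%), and between Snail and E47 0 and 1 (0% against 0.026%). Between Slug and E47 4 genes were called. The median of the members moved to -0.07 in Snail with median centring, to -0.03 in Slug on the Cy3 arrays, and to -0.17 in Slug and -0.05 in E47 over genes on all 12 arrays. With the second transfectant turned, 357 genes were called between Snail and E47 and 15 members and 985 genes between Slug and E47. The Snail-Slug differences of DDX3X (-1.32), PRPF18 (-0.82), PRPF19 (0.79), RBM42 (0.55) and SNRPE (-0.63) then changed sign.

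Single arrays were left out as a choice made after seeing the data. Without the E47 1 array titled Cy3, 368 genes were called in E47 and 66 genes between Slug and E47. Between Snail and E47 5 members and 199 genes were called there (12.2% of the members, against 5.36% of all genes). Without the E47 1 array titled Cy5, 1 member and 52 genes were called between Snail and E47 (2.44% against 1.42%). Without the Slug 2 array titled Cy5, 170 genes were called in Snail and 1 member and 106 genes in E47 (2.22% against 2.67%). Between Snail and Slug 5 and 271 were called there (12.5% against 7.36%), and between Snail and E47 0 and 9 (0% against 0.249%). Between Slug and E47 5 genes were called, and the Slug median was -0.07.

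Over the 6 fits that each left out 1 replicate, members called ranged from 0 to 6 in Snail, 5 to 13 in Slug, 0 to 2 in E47, 3 to 8 between Snail and Slug and 0 to 3 between Snail and E47, and were 0 between Slug and E47. Genes called ranged from 34 to 345, 339 to 891, 26 to 275, 138 to 389, 3 to 137 and 8 to 27 in the same order. Medians ranged from -0.22 to -0.13 in Snail, -0.22 to -0.13 in Slug and -0.11 to -0.07 in E47. A transfectant left with 1 sample is assumed to vary like the others.

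The labels do not say whether same-numbered samples share more than a number. Over 3537 genes their deviations correlated with r = 0.02 (Snail and Slug), 0.23 (Snail and E47) and -0.07 (Slug and E47). With the replicate number as a block, 5, 13, 3, 11, 4 and 0 members and 294, 903, 231, 519, 101 and 34 genes were called in the order above. These were 12.2%, 31.0%, 6.67%, 27.5%, 9.76% and 0% of the members, against 7.8%, 22.3%, 5.82%, 14.1%, 2.79% and 0.891% of all genes. SNRPF was then called in E47 by limma (-0.54, adjusted p = 0.0492).

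Of 41 single-gene results, 32 of them called, 23 lost their call on the Cy3 arrays alone, 16 on the Cy5 arrays, 10 with 1 spread, 2 with median centring and 0 with the median over spots. Leaving out Snail replicate 1 or 2 ended 11 or 14 calls, Slug replicate 1 or 2 ended 13 or 14, and E47 replicate 1 or 2 ended 5 or 7. In these fits none changed sign. With 1 spread, RBM42 lost its calls in Slug (0.56, adjusted p = 0.0586) and between Snail and Slug (-0.69, adjusted p = 0.0952), the second also with median centring (-0.73, adjusted p = 0.0532). Ratios carry no signal over background, so dim spots could not be told from bright ones.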
